A study of Mus musculus with 19 samples.

Results

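The genes that coat and release milk fat in the mouse mammary gland were examined across pregnancy and across deletions of casein enhancers. They are Btn1a1, Xdh, Plin2, Mfge8, Muc1, Cidea and Rab18, 7 of the 24421 genes counted, and they were picked by symbol for their known roles, with earlier results of these data known. Milk fat is made as droplets at the endoplasmic reticulum of the luminal secretory cell, and a droplet leaves the cell wrapped in apical plasma membrane, which becomes the milk fat globule membrane. Butyrophilin (Btn1a1) in that membrane, xanthine dehydrogenase (Xdh) in the cytoplasm and perilipin 2 (Plin2) on the droplet surface are the proteins known to join droplet and membrane during release. Lactadherin (Mfge8) and the mucin Muc1 are surface proteins of the globule, Cidea works in droplet fusion and growth, and the small GTPase Rab18 sits on droplets and on the endoplasmic reticulum.

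Total RNA-seq had been done on mammary tissue of C57BL/6 mice (C57BL/6 N for the edited lines, per the paper) at pregnancy days 6 and 18 (p6 and p18), in 19 libraries. There were 3 wild-type (WT) libraries at each of these stages. Mice labelled Enhancer-delS1-4 gave 4 libraries at each stage. They were taken here as the ΔSE line of the paper, which lacks a super-enhancer that lies between Csn1s2b and Csn3, next to Odam. At p18 there were also 2 libraries labelled delCsn3-PE (ΔCsn3PE, deletion of the proximal enhancer of the κ-casein gene Csn3) and 3 labelled delCsn1s2b-E (ΔCsn1s2bE, deletion of an enhancer of the casein gene Csn1s2b). The paper describes its lines as homozygous deletions made with CRISPR/Cas9, and its replicates as independent biological replicates. It describes injection of guide RNAs into fertilized eggs, so that the deletions it made are not limited to the mammary gland. The paper describes no deletion of a Csn3 enhancer and no RNA-seq of a line lacking a single Csn1s2b enhancer. Whether these points hold for ΔCsn3PE and ΔCsn1s2bE is therefore uncertain. Which of the enhancers of Csn1s2b is meant is left unnamed in the labels. Extraction notes of the ΔCsn3PE and ΔCsn1s2bE libraries name WT tissue of lactation days 1 and 10, so that their stage is uncertain.

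Reads in genes ranged from 12335272 to 20525175 per library in WT and ΔSE tissue and from 26848053 to 30329601 in the single-enhancer lines, where 0.0765 to 0.924% of reads came from Rn45s, a precursor of ribosomal RNA, against 21.7 to 42.9% in the other libraries. Csn3 ran from 5301 to 6915 CPM (read counts scaled to library size) in WT tissue at p18 and from 51.7 to 156 CPM in ΔSE tissue, and Csn1s2b from 43.8 to 226 and from 2.70 to 16.6 CPM. Csn3 was 1347 and 279 CPM in ΔCsn3PE tissue, whereas Csn1s2b in ΔCsn1s2bE tissue (28.0 to 50.3 CPM) overlapped WT levels. All 12 luminal epithelial markers were detected in every library. WT p6 replicate 2 differed from replicates 1 and 3 in genes that bear on the results below. Its Csn3 was 45.2 CPM against 316 and 413 CPM, its Ucp1, the uncoupling protein of brown fat, was 66.7 CPM against 0 and 0.0933 CPM, and its summed luminal markers were 1186 CPM against 826 and 941 CPM. Over all genes it was replicate 1 that lay farthest, with a chi-square per gene between libraries of 109.7 to replicate 2 and 113 to replicate 3, against 41.2 between replicates 2 and 3. Transcripts of skeletal muscle, summed over 10 markers, ran from 1475 to 2749 CPM in WT and from 58.1 to 4235 CPM in ΔSE tissue at p6. At p18 they were 4.73, 1235 and 1840 CPM in WT replicates 1, 2 and 3 and 6.49 to 17.5 CPM in ΔSE tissue.

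STAT5 and NFIB are factors known to act at milk protein genes, so the 250 bases before the start site are shown for Plin2, Mfge8 and Muc1, 3 of the 7 members, all of which were called higher at p18 (RefSeq, GRCm38.p6, read in the direction of transcription). Plin2 is from chr4:86670060-86670309 (minus strand), Mfge8 from chr7:79149061-79149310 (minus strand) and Muc1 from chr3:89228806-89229055 (plus strand). Capitals mark the NFIB motif TGGCA or its reverse complement TGCCA.
Plin2: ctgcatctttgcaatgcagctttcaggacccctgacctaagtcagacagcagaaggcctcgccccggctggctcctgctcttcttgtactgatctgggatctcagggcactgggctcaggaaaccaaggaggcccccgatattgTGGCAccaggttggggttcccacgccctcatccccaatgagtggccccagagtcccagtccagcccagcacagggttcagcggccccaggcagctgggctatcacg
Mfge8: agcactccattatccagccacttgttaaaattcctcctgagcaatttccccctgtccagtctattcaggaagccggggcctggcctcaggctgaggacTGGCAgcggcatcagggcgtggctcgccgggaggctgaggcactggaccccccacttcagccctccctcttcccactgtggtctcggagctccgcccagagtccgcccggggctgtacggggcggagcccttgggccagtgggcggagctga
Muc1: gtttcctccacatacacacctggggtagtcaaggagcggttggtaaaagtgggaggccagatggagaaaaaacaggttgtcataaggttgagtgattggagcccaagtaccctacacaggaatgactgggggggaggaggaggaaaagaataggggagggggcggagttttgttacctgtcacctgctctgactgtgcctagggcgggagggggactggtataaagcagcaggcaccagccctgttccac
On either strand, TGGCA was found once in Plin2, 106 bases before the start, and once in Mfge8, 152 bases before it, and was not found in Muc1. It occurs in 42.8% of all 32851 promoters cut to the same length. The GAS motif TTCNNNGAA, to which STAT5 binds, was in 0 of the 3 windows and occurs in 7.02% of all promoters. The motifs do not overlap in these windows. These matches are a description of the letters and not evidence of binding.

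On mouse build GRCm38 (GENCODE M21), Btn1a1 lies on chromosome 13 (23456992 to 23465901, minus strand), Xdh on chromosome 17 (73883895 to 73950196, minus), Plin2 on chromosome 4 (86648386 to 86670060, minus), Mfge8 on chromosome 7 (79133768 to 79149060, minus), Muc1 on chromosome 3 (89229057 to 89233381, plus), and Cidea (67343604 to 67367785, plus) and Rab18 (6733905 to 6794429, plus) on chromosome 18.  Xdh overlaps the annotated gene CT025731.2 on its own strand, Rab18 overlaps AC131796.2 on its own strand and AC131796.1 on the other, and Cidea overlaps B430212C06Rik on the other strand. Whether the counting used strand is not given in the sources used here, and the share of these genes' reads that belongs to their overlapping neighbours is uncertain.

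The order of the members changed between the stages. Divided by exon length, Mfge8 was the highest member at p6, at 110 ± 33.4 CPM per kb in WT (SD, n = 3) and 61.4 ± 13.1 CPM per kb in ΔSE tissue (n = 4), with no overlap with the next, Plin2, at 47.0 ± 14.9 and 33.8 ± 8.96 CPM per kb. At p18, Btn1a1 (381 ± 133 CPM per kb) and Plin2 (364 ± 57.7) led in WT tissue with overlapping libraries, followed by Mfge8 (208 ± 55.4) and Xdh (187 ± 53.4), which also overlapped. In ΔSE tissue at p18, Plin2 (290 ± 7.31 CPM per kb) was above Btn1a1 (212 ± 58.7) in every library. Rab18, Cidea and Muc1 formed the low end at p18, between 11.5 and 50.4 CPM per kb on average in WT and ΔSE tissue, and neighbours within that end overlapped. Spread over libraries differed between members. Across the 3 WT libraries at p6 the highest was 21 times the lowest for Btn1a1 and 22.8 times for Cidea, but 1.03 times for Rab18.

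**Figure D1:**
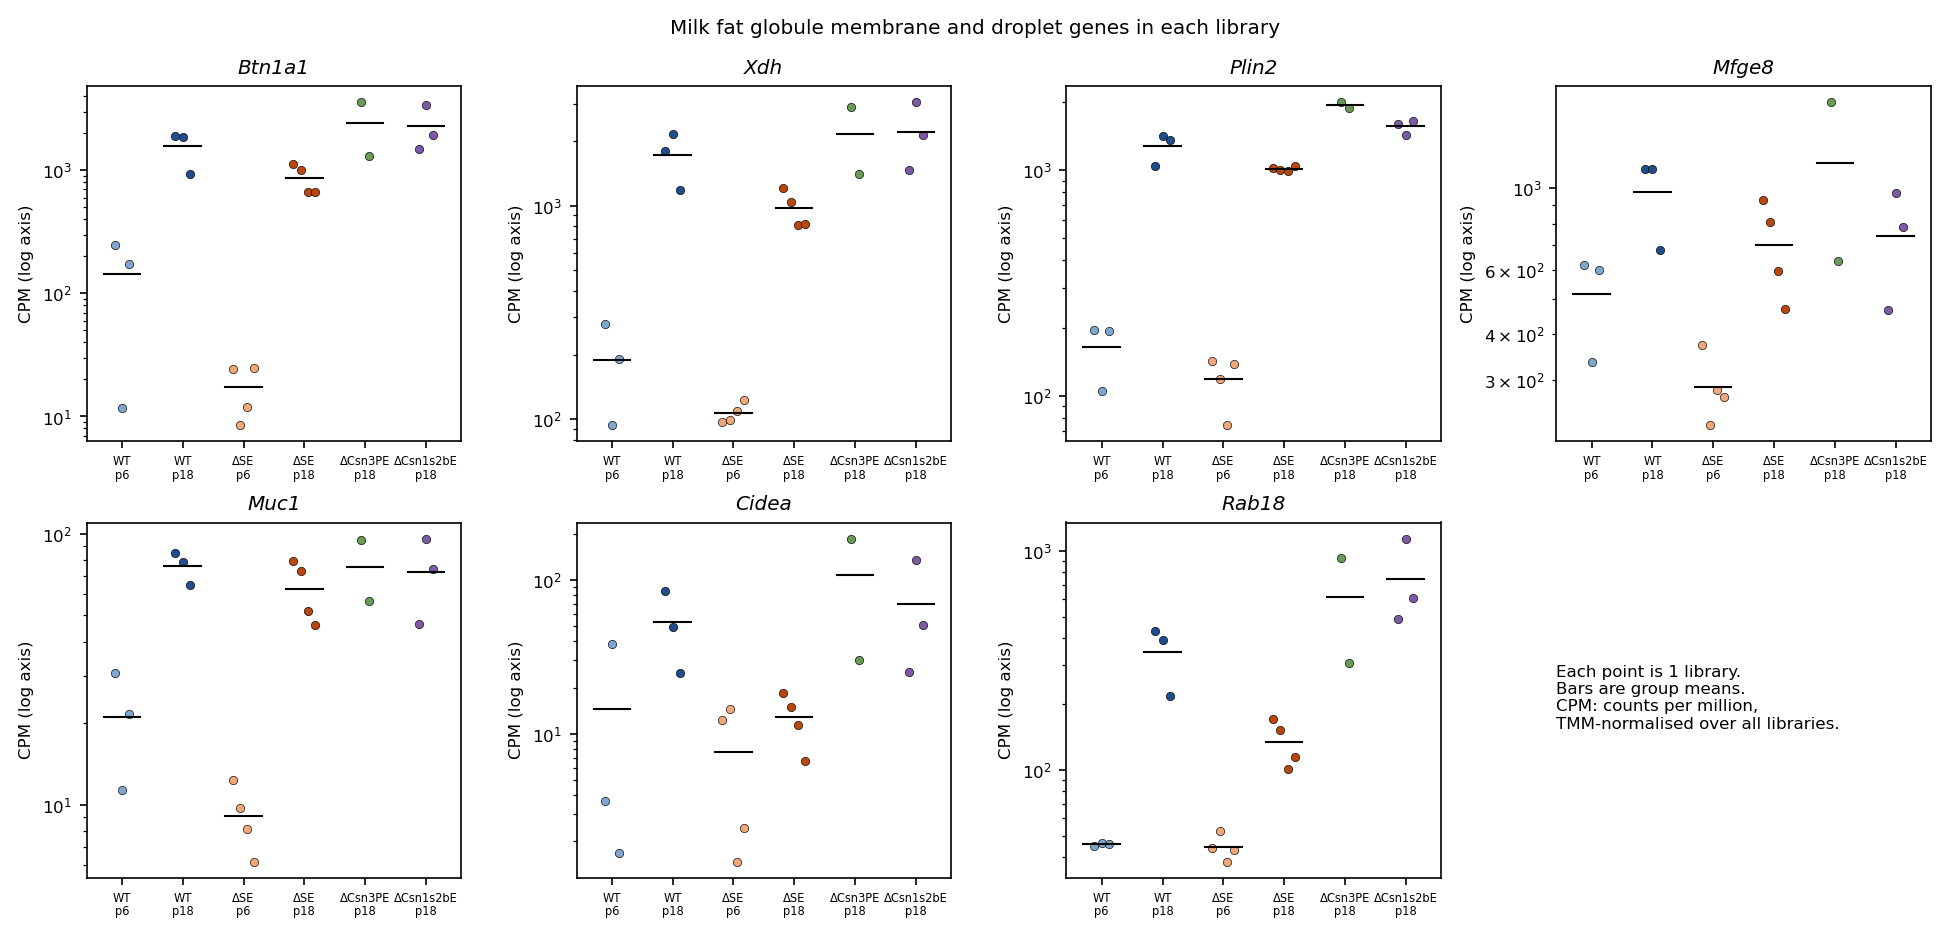
Level of each member in CPM (log axis) in each library of the 6 groups; points are libraries and bars are group means. Btn1a1, Xdh and Plin2 at p18 lie far above p6 in both genotypes, while the 3 ranges of Rab18 at p6 WT, p18 ΔSE and p18 WT (44.9 to 46.2, 101 to 171 and 216 to 429 CPM) follow each other without overlap.

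In WT tissue the release machinery rose steeply between p6 and p18. Of the 7 members, 6 were called higher at p18 and none lower by edgeR's quasi-likelihood test with Benjamini-Hochberg adjustment (adjusted p under 0.05), against 17.2% of all genes called higher, and the same 6 did not overlap between the stages, against 24.4% of all genes. The members' median log2 fold change was 2.85, where the median over all genes tested was -0.05. In bulk tissue, more cells of a type and more RNA per cell cannot be told apart.

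Btn1a1, the membrane partner of the release complex, was 246, 11.7 and 174 CPM in WT replicates 1, 2 and 3 at p6 and 1904, 1866 and 938 CPM at p18. All libraries at p18 were above those at p6, by a log2 fold change of 3.38 (SE 0.71, adjusted p = 0.00201). Xdh, whose product is best known as an enzyme of purine breakdown and which acts as a structural partner of Btn1a1 in milk fat release, went from 280, 93.6 and 192 CPM to 1808, 2156 and 1189 CPM (3.12, SE 0.32, adjusted p = 7.18e-06). Plin2, the coat protein of droplets in many cell types, went from 197, 105 and 194 CPM to 1045, 1422 and 1364 CPM (2.88, SE 0.26, adjusted p = 2.06e-06). For these 3 genes the lowest library at p6 was replicate 2.

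The surface proteins also rose, with smaller estimates whose difference from the release genes was not tested. Muc1, a heavily glycosylated mucin of the apical membrane, was 30.6, 11.4 and 21.6 CPM at p6 and 85.4, 78.8 and 64.8 CPM at p18, a log2 fold change of 1.79 (SE 0.30, adjusted p = 0.000389). Mfge8, which binds phosphatidylserine and also serves in the clearance of dying cells, was 616, 336 and 597 CPM at p6 and 1127, 1127 and 676 CPM at p18, a log2 fold change of 0.85 (SE 0.28, adjusted p = 0.0303). The Mfge8 groups were close, the highest library at p6 reaching 616 CPM and the lowest at p18 being 676 CPM. Its call was lost without WT p6 replicate 2 (0.60, adjusted p = 0.121), without WT p18 replicate 1 (0.73, adjusted p = 0.0941) and without WT p18 replicate 2 (0.75, adjusted p = 0.106). It was also lost with scaling by library totals (0.48, adjusted p = 0.200), with the muscle markers as a covariate (0.63, adjusted p = 0.0992), with only the groups compared (0.83, adjusted p = 0.0866), without the p6 libraries with Ucp1 (0.56, adjusted p = 0.137) and with a single WT p18 library, replicate 1 (1.07, adjusted p = 0.0785).

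Of the droplet genes, Rab18 was called and Cidea was not, and the difference between both was not tested. Rab18 was 44.9, 46.2 and 46.0 CPM at p6 and 429, 390 and 216 CPM at p18, a log2 fold change of 2.85 (SE 0.24, adjusted p = 9.40e-07). Cidea was 3.64, 38.2 and 1.68 CPM at p6 and 84.6, 49.6 and 24.8 CPM at p18, and its groups overlapped through WT p6 replicate 2 (1.79, SE 0.87, adjusted p = 0.137). Without that library Cidea was called higher, by 4.29 (adjusted p = 0.00160 in edgeR's quasi-likelihood test). It was the highest WT library in Cidea at p6, so leaving it out enlarges the rise by construction.

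Cidea is also a known gene of brown fat, and at p6 it was high in the libraries with Ucp1. WT p6 replicate 2 held 38.2 CPM of Cidea and 66.7 CPM of Ucp1. In ΔSE tissue at p6, replicates 1 and 2 held 12.3 and 14.4 CPM of Cidea with 13.8 and 16.6 CPM of Ucp1, and replicates 3 and 4 held 1.47 and 2.43 CPM of Cidea with 0.885 and 0.194 CPM of Ucp1. Thus the 3 libraries with Ucp1 over 10 CPM were the 3 highest in Cidea at p6, an observation made after the values were seen. The sum of 9 brown fat markers, Ucp1 among them and Fabp3 left out as a milk fat globule gene, was 137 CPM in WT p6 replicate 2, 59.1 and 80.4 CPM in ΔSE p6 replicates 1 and 2, and 18.7 to 44.5 CPM in the other 4 libraries at p6, with 0 to 2 of the 9 at 0 reads. As Ucp1 also set the split, this sum is not separate from it. In ΔSE p6 replicate 1, Dio2 (17.6 CPM) and Cox8b (9.11 CPM) were not above replicate 4 (18.1 and 9.33 CPM). Ppara (10.8 against 7.09 CPM) and Elovl3 (0.655 against 0.243 CPM) were. At p18 Ucp1 was 0 to 1.80 CPM, with 0 reads in WT replicates 1 and 3, the summed markers were 12.4 to 23.4 CPM in WT and ΔSE tissue, and Cidea in WT tissue was 24.8 to 84.6 CPM. The part of brown fat transcripts in the p6 values of Cidea was not tested. Leaving out the 3 libraries with Ucp1 over 10 CPM gave log2 fold changes from p6 to p18 of 4.24 in WT and 2.54 in ΔSE tissue. The adjusted p of edgeR's quasi-likelihood test was then 0.000114 and 0.00247. As these libraries were also the 3 highest in Cidea at p6, a larger rise was fixed by leaving them out, and no conclusion is drawn from it.

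**Figure D2:**
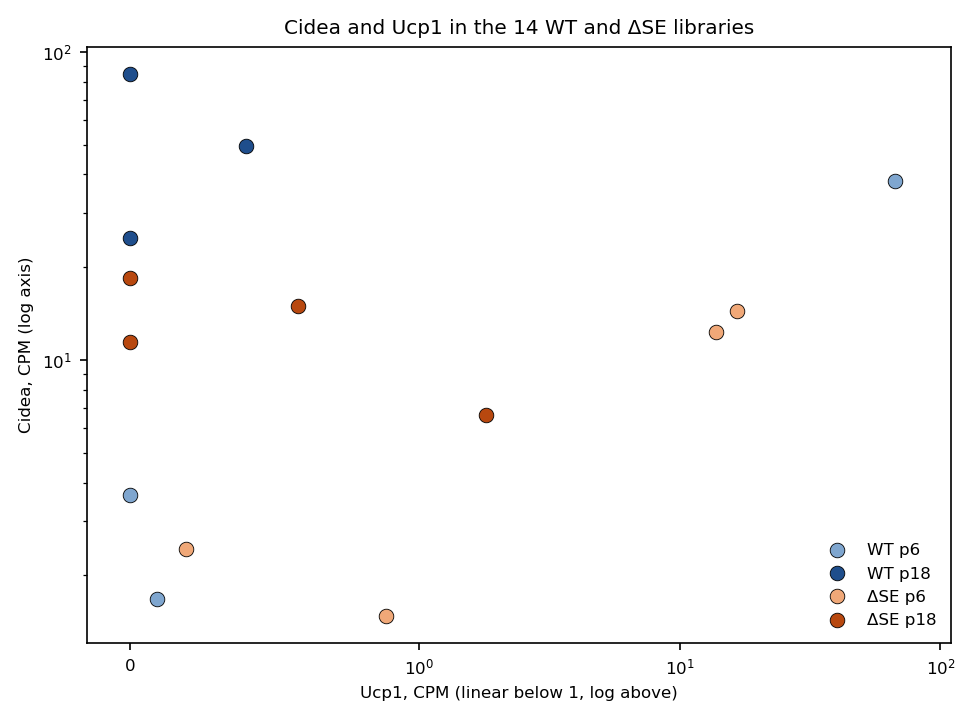
Cidea (vertical, CPM, log axis) against Ucp1 (horizontal, CPM, linear below 1 and log above) in the 14 WT and ΔSE libraries, 1 point a library. At p6 the 3 points with Ucp1 over 10 CPM have 12.3 to 38.2 CPM of Cidea and the other 4 have 1.47 to 3.64 CPM, whereas at p18 Cidea reaches 84.6 CPM with Ucp1 at or below 1.80 CPM.

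In ΔSE tissue the same 6 members were called higher at p18 than at p6 and none lower, against 17.3% of all genes called higher, and did not overlap, against 23.7%. The median log2 fold change of the members was 2.67, beside -0.07 over all genes. Btn1a1 had the largest rise of the 7 members, from 24.3, 8.48, 12 and 24.8 CPM in replicates 1 to 4 at p6 to 1138, 1015, 665 and 668 CPM at p18. That is a log2 fold change of 5.53 (SE 0.68, edgeR's quasi-likelihood test, adjusted p = 1.87e-05).

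Xdh rose by 3.06 (SE 0.28, adjusted p = 1.43e-06), from 97.2 to 123 CPM at p6 to 810 to 1208 CPM at p18. Plin2 rose by 2.99 (SE 0.23, adjusted p = 3.20e-07), from 74.2 to 143 CPM at p6 to 990 to 1051 CPM at p18, where its highest library was 1.06 times its lowest, the narrowest spread of any member in that group. In WT tissue the same estimates were 3.12 and 2.88. The summed muscle markers also fell in this comparison, from 58.1 to 4235 CPM at p6 to 6.49 to 17.5 CPM at p18, and their part was tested only as a covariate, with which Mfge8 was not called (0.78, adjusted p = 0.0912) and the other 5 calls were kept. With scaling by library totals the Mfge8 call was lost too (0.55, adjusted p = 0.0580).

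Muc1 went from 12.3, 9.73, 8.18 and 6.17 CPM to 79.5, 73.1, 51.8 and 46.1 CPM (2.67, SE 0.27, adjusted p = 3.74e-06). Mfge8 went from 373, 227, 282 and 271 CPM to 926, 806, 594 and 467 CPM (1.16, SE 0.24, adjusted p = 0.00158). Rab18 went from 44.0, 52.5, 38.0 and 43.0 CPM to 171, 152, 101 and 114 CPM (1.48, SE 0.19, adjusted p = 3.32e-05). None of these groups overlapped. Cidea was 12.3, 14.4, 1.47 and 2.43 CPM at p6 and 18.4, 15.0, 11.4 and 6.65 CPM at p18, with overlapping libraries (0.60, SE 0.79, adjusted p = 0.587).

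**Figure D3:**
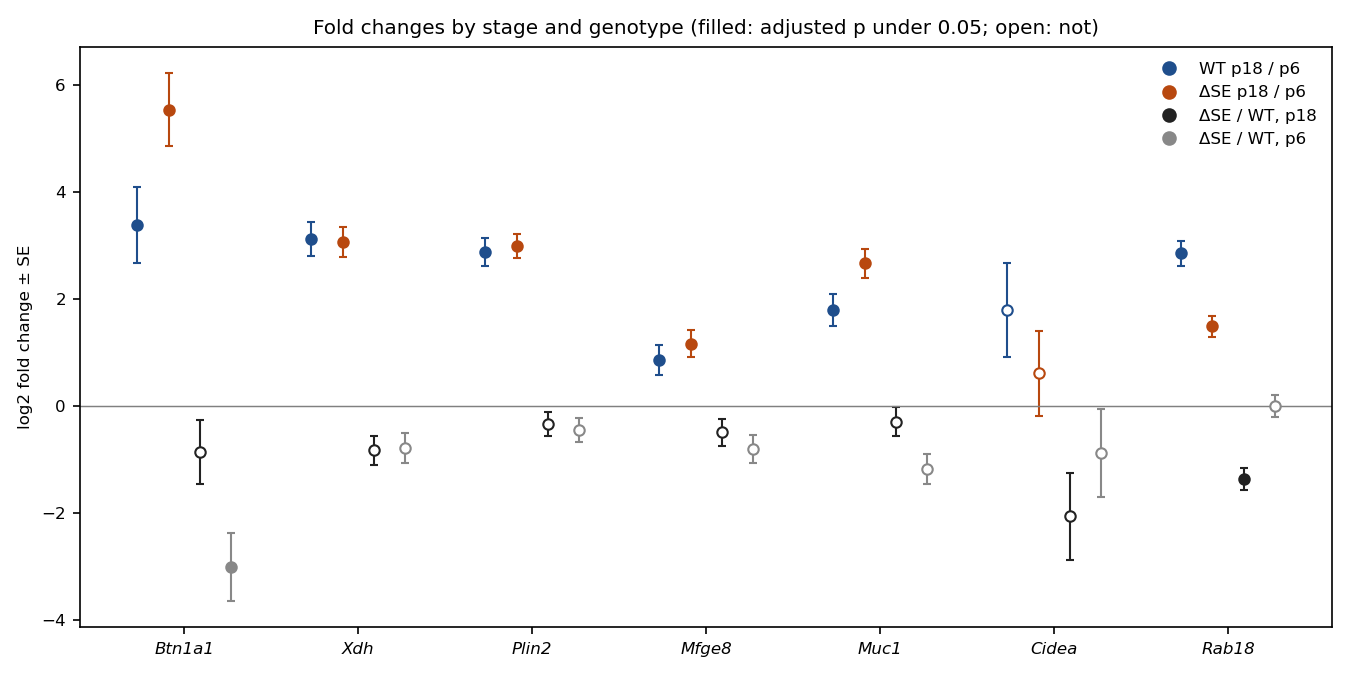
Log2 fold changes (vertical) of the 7 members, with SE, for p18 against p6 in WT and ΔSE tissue and for ΔSE against WT at each stage; filled points passed adjusted p under 0.05. The stage changes of Xdh and Plin2 nearly coincide between genotypes (3.12 and 3.06, 2.88 and 2.99), those of Btn1a1 and Rab18 lie apart in opposite directions (3.38 and 5.53, 2.85 and 1.48), and only Rab18 at p18 and Btn1a1 at p6 are filled among the genotype differences.

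At p18 the loss of the super-enhancer came with lower Rab18, and with no call in the release complex. Rab18 was 171, 152, 101 and 114 CPM in the 4 ΔSE libraries and 429, 390 and 216 CPM in the 3 WT libraries, with no overlap. Its log2 fold change was -1.37 (SE 0.20, edgeR's quasi-likelihood test, adjusted p = 0.0103), and it was the only member called, against 0.213% of all genes called lower. The call was lost without WT p18 replicate 1 (-1.18, adjusted p = 0.0553), without WT p18 replicate 2 (-1.29, adjusted p = 0.0824) and without ΔSE p18 replicate 3 (-1.27, adjusted p = 0.0560), and kept without each of the 4 other libraries. Leaving out WT replicates 2 and 3, which carry muscle transcripts, left 1 WT library, replicate 1, the highest in Rab18. The estimate was then -1.69, with the spread taken from the other groups.

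Cidea at p18 was also lower in every ΔSE library (6.65 to 18.4 CPM) than in any WT library (24.8 to 84.6 CPM), so that 2 of 7 members did not overlap in this direction, against 9.05% of all genes, but its log2 fold change of -2.07 had an SE of 0.81 and an adjusted p of 0.295 in edgeR's quasi-likelihood test. In a model of the compared groups alone it was called (-2.04, adjusted p = 0.00374), as was Xdh (-0.80, adjusted p = 0.0213), in a fit that called 3.43% of all genes lower. Among the WT p18 libraries, Btn1a1, Mfge8, Muc1, Cidea and Rab18 were all highest in replicate 1 and lowest in replicate 3.

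The other members had overlapping libraries at p18. Btn1a1 differed by -0.86 (SE 0.60, adjusted p = 0.606), Xdh by -0.84 (SE 0.28, adjusted p = 0.197), Mfge8 by -0.50 (SE 0.26, adjusted p = 0.445), Plin2 by -0.34 (SE 0.23, adjusted p = 0.587) and Muc1 by -0.30 (SE 0.27, adjusted p = 0.709) on the log2 scale. All 7 members' estimates were below 0, with a median of -0.84 beside -0.04 over all genes.

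At p6 Btn1a1 was the only member called between ΔSE and WT tissue. It was 8.48 to 24.8 CPM in ΔSE tissue and 246, 11.7 and 174 CPM in WT tissue, so that WT p6 replicate 2 lay inside the ΔSE range. The log2 fold change was -3.02 (SE 0.63, edgeR's quasi-likelihood test, adjusted p = 0.0378), against 0.527% of all genes called lower. The call was lost when any of 6 libraries was left out. It was lost without WT p6 replicates 1 (-2.38, adjusted p = 0.18) and 3 (-2.87, adjusted p = 0.0917), and without ΔSE p6 replicates 1 (-3.23, adjusted p = 0.0533), 2 (-2.80, adjusted p = 0.0881), 3 (-2.89, adjusted p = 0.0890) and 4 (-3.24, adjusted p = 0.112). Without WT p6 replicate 2 it was -3.57 (adjusted p = 5.15e-05).

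Without WT p6 replicate 2, 5 of the 7 members were called lower in ΔSE tissue at p6, in a fit that called 4.55% of all genes lower. Besides Btn1a1 these were Muc1 (-1.49, adjusted p = 0.00122), Xdh (-1.12, adjusted p = 0.00438), Mfge8 (-1.05, adjusted p = 0.0147) and Plin2 (-0.70, adjusted p = 0.0400), all by edgeR's quasi-likelihood test. WT p6 replicate 2 was the lowest WT library at p6 in each of these 5 members, so leaving it out widens these differences by construction. Cidea changed sign without this library, to 1.62 (adjusted p = 0.217). With all libraries Muc1 was -1.18 (SE 0.28, adjusted p = 0.0557), Mfge8 -0.81 (SE 0.26, adjusted p = 0.123), Xdh -0.78 (SE 0.28, adjusted p = 0.162), Plin2 -0.45 (SE 0.23, adjusted p = 0.328) and Cidea -0.88 (SE 0.82, adjusted p = 0.642). Rab18 had nearly the same mean in both genotypes at p6, 45.7 ± 0.656 CPM in WT (SD, n = 3) and 44.4 ± 6.02 CPM in ΔSE tissue (n = 4), with a log2 fold change of -0.01 (SE 0.21, adjusted p = 0.992).

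Whether the change from p6 to p18 differed between the genotypes was tested with an interaction term. None of the 7 members was called (0.151% of all genes were, in either direction), 3 had an unadjusted p under 0.05 (16.6% of all genes did), and DESeq2 called 1, Rab18, with 3.35% of all genes. For Rab18 the interaction was -1.36 on the log2 scale, a smaller rise in ΔSE than in WT tissue (SE 0.29, edgeR's quasi-likelihood test, adjusted p = 0.0641), and DESeq2 gave -1.33 with an adjusted p of 0.00225. Btn1a1 had an interaction of 2.16 (SE 0.87, adjusted p = 0.238) and Muc1 of 0.88 (SE 0.39, adjusted p = 0.281). Xdh (-0.05, SE 0.40) and Plin2 (0.11, SE 0.32) had the smallest estimates. Without WT p18 replicate 3 Rab18 was called (-1.61, adjusted p = 0.0161), with 0.174% of all genes. Without WT p6 replicate 2, where 5.84% of all genes were called, there were 4 calls by edgeR's quasi-likelihood test, namely Btn1a1 (2.74, adjusted p = 0.00623), Muc1 (1.22, adjusted p = 0.0389), Rab18 (-1.33, adjusted p = 0.0242) and Cidea (-3.66, adjusted p = 0.0376). That library was the lowest of WT p6 in Btn1a1 and Muc1 and the highest in Cidea, so leaving it out enlarges the estimates of Btn1a1, Muc1 and Cidea by construction.

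Ratios of counts between members within a library do not depend on how libraries are scaled. In ΔSE tissue Btn1a1 was 0.0853 to 0.250 times Xdh at p6 and 0.813 to 0.977 times Xdh at p18, a mean change of 6.00-fold. Relative to Plin2, Btn1a1 rose 6.07-fold. Both had an exact two-sided permutation p of 0.0286, the smallest that 4 against 4 libraries allow, and an adjusted p of 0.152 over the 16 ratios and comparisons. Xdh relative to Plin2 moved by 1.01-fold between the stages in ΔSE tissue (exact permutation p = 1).

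In WT tissue at p6 the ratio of Btn1a1 to Xdh was 0.881 and 0.904 in replicates 1 and 3 and 0.125 in replicate 2, which lay within the ΔSE range of that stage. At p18 it was 0.788 to 1.05 in WT tissue, overlapping ΔSE tissue (exact permutation p = 0.914). Mfge8 fell relative to Btn1a1 in all libraries of both genotypes, to 0.102 times its p6 ratio in WT (exact permutation p = 0.1, the smallest that 3 against 3 allow; 0.217 times without WT p6 replicate 2) and to 0.0443 times in ΔSE tissue (exact permutation p = 0.0286, adjusted p = 0.152).

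**Figure D4:**
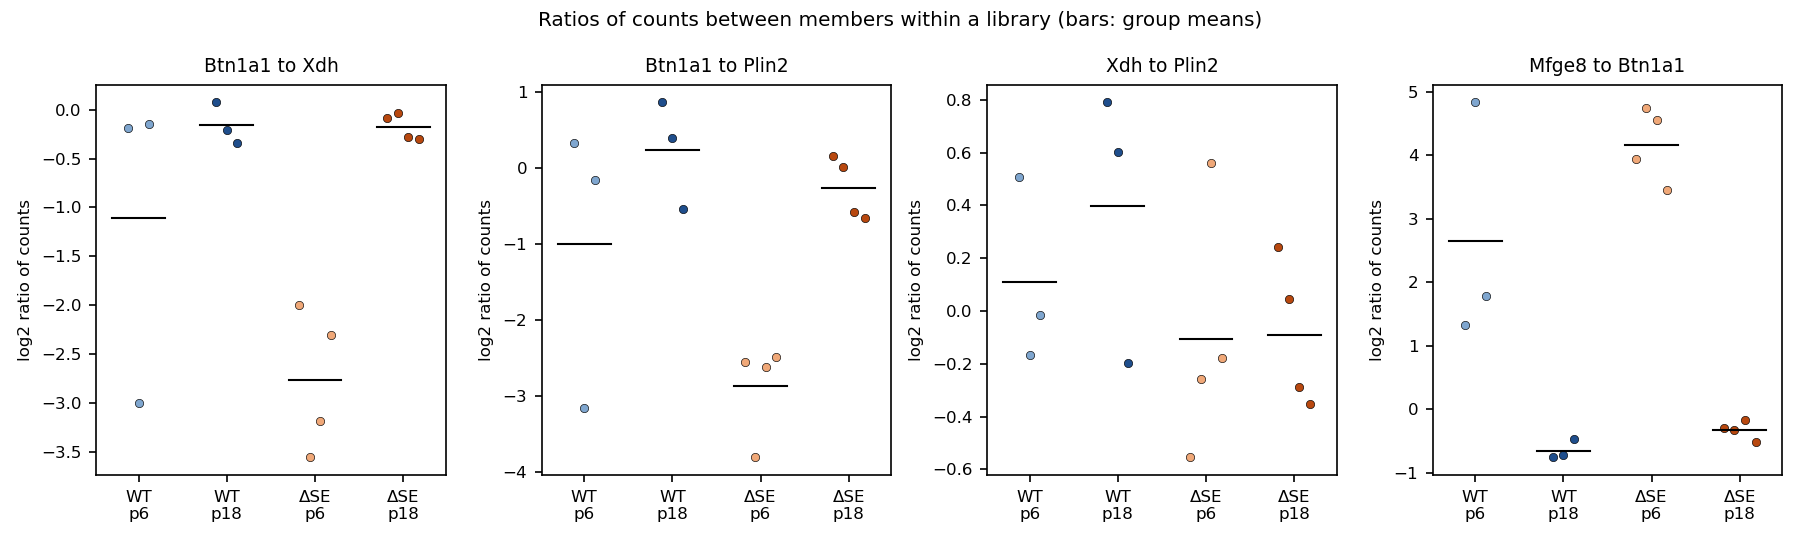
Log2 ratios of counts between pairs of members (vertical) within each of the 14 WT and ΔSE libraries, by group, with bars at group means. At p6 the ratio of Btn1a1 to Xdh in WT replicate 2 (-3.0) sits among the ΔSE libraries (-3.55 to -2.0), while all p18 libraries lie between -0.34 and 0.07.

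Luminal cells make milk and multiply in pregnancy, so each member was also divided by the summed counts of 12 luminal markers. Of these markers, 3 were called higher and 2 lower at p18 in WT tissue (17.2% and 12.4% of all genes). In ΔSE tissue 9 were called higher and 2 lower (17.3% and 18.3% of all genes). Rab18 per luminal marker rose 5.12-fold from p6 to p18 in WT tissue, with no overlap (exact permutation p = 0.1, the smallest possible), and 1.39-fold in ΔSE tissue, with overlap (exact permutation p = 0.114). At p18 it was 0.133 to 0.398 in WT and 0.0683 to 0.104 in ΔSE tissue, 0.345-fold from the means of the log2 ratios. Plin2 per luminal marker was 0.837 to 0.971 in WT and 0.611 to 0.669 in ΔSE tissue (0.697-fold), and Cidea was 0.222-fold (0.336-fold without WT p18 replicate 1). In these 3 members the ΔSE libraries were all below the WT libraries at p18. Each had an exact permutation p of 0.0571, the smallest that 4 against 3 allow, and an adjusted p of 0.229 over 28 comparisons. The remaining members were also lower on average in ΔSE tissue at p18, with overlapping libraries. Btn1a1 was 0.491-fold, Xdh 0.497-fold, Mfge8 0.615-fold and Muc1 0.698-fold. For ratios to luminal markers the share of all genes without overlap was not computed, so whether Rab18, Plin2 and Cidea stand out was not tested. The summed markers at p18 were 1076 to 1629 CPM in WT and 1480 to 1648 CPM in ΔSE tissue. Mfge8 per luminal marker differed little between stages, 1.35-fold in WT and 1.11-fold in ΔSE tissue, with overlapping libraries in both.

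**Figure D5:**
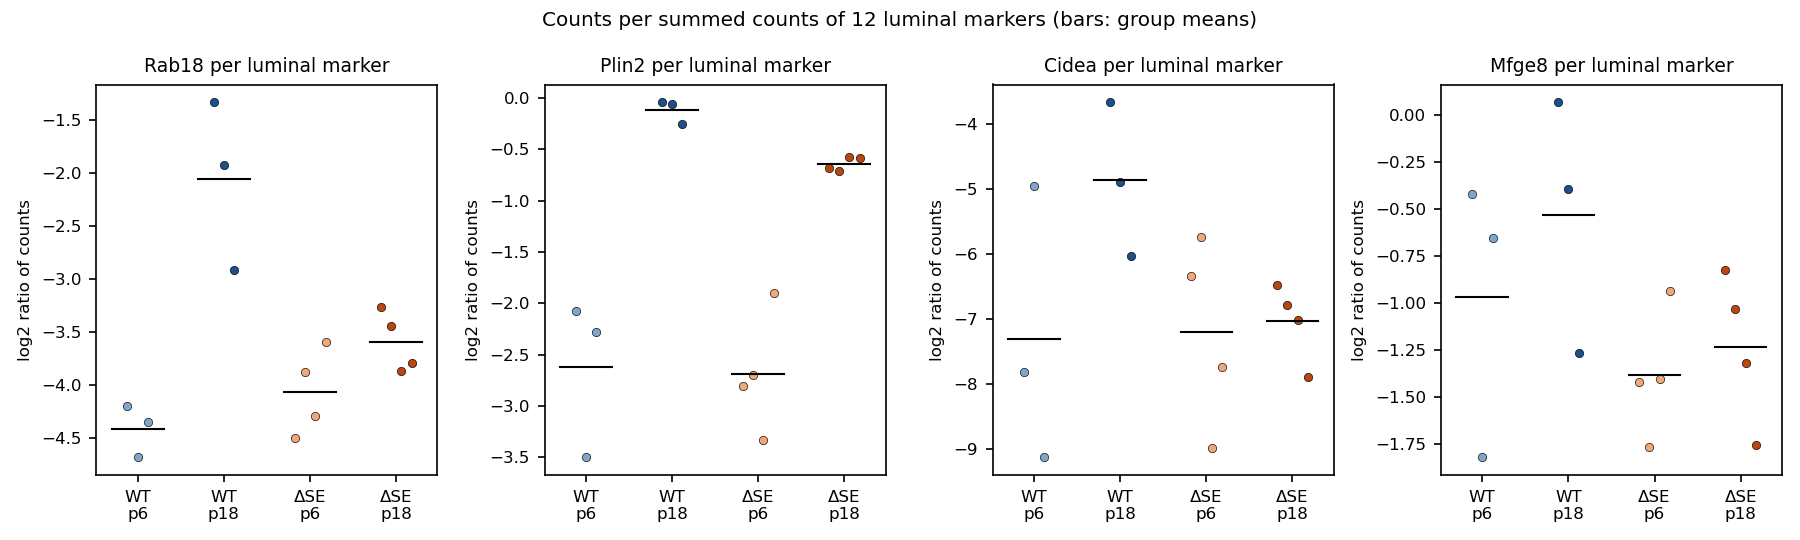
Log2 of the counts of Rab18, Plin2, Cidea and Mfge8 over the summed counts of 12 luminal markers (vertical) in the 14 WT and ΔSE libraries, by group, with bars at group means. At p18 the ΔSE libraries lie below all WT libraries for Rab18, Plin2 and Cidea. For Mfge8 they overlap, at -1.75 to -0.83 in ΔSE and -1.27 to 0.07 in WT tissue.

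In the single-enhancer lines most members overlapped WT levels. These lines belong to another set of labels with far less Rn45s and an uncertain stage, and the line and the set cannot be told apart. Btn1a1 was 3591 and 1305 CPM in ΔCsn3PE tissue and 1491, 3434 and 1950 CPM in ΔCsn1s2bE tissue. Rab18 was 926 and 307 CPM in ΔCsn3PE and 490, 1138 and 609 CPM in ΔCsn1s2bE tissue, the last all above the highest WT library of 429 CPM. Rab18 and Plin2 were the 2 members without overlap in ΔCsn1s2bE against WT tissue, against 25.5% of all genes higher without overlap. Cidea was 186 and 30.0 CPM in ΔCsn3PE and 25.3, 135 and 50.9 CPM in ΔCsn1s2bE tissue. Replicate 1 of ΔCsn3PE and replicate 2 of ΔCsn1s2bE were the highest of their groups in Btn1a1, Xdh, Mfge8, Muc1, Cidea and Rab18 alike, while Plin2 was lowest in the latter library (1432 CPM).

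Of the 7 members, 1 was called higher in ΔCsn3PE than in WT tissue (13.8% of all genes were, and 27.9% did not overlap in that direction). This was Plin2, at 2006 and 1894 CPM (0.60, SE 0.19, edgeR's quasi-likelihood test, adjusted p = 0.0446), a call lost without any 1 of the 5 libraries compared (adjusted p = 0.0601 to 0.164). Without 1 of the ΔCsn3PE libraries a single one remained, and the spread came from the other groups. Rab18 was then 1.41 (adjusted p = 0.0415) with replicate 1 alone and -0.19 (adjusted p = 0.822) with replicate 2 alone. None was called between ΔCsn1s2bE and WT tissue, where 32.3% of all genes were called in either direction, 1 member had an unadjusted p under 0.05 (43% of all genes did) and DESeq2 called 0. That member was Rab18 (1.10, SE 0.43, adjusted p = 0.0700). Between both lines, which share a set of labels, edgeR called none of the 7, none had an unadjusted p under 0.05 and DESeq2 called 0. There 0.181% of all genes were called in either direction. Plin2 was lower in ΔCsn1s2bE (1432, 1610 and 1659 CPM) than in ΔCsn3PE tissue without overlap (10.2% of all genes were), by -0.31 (SE 0.19).

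Genes that work beside the members were counted from lists. Between p6 and p18, 17.2% of all genes were called higher and 12.4% lower in WT tissue. In ΔSE tissue these shares were 17.3% and 18.3%. Of 16 other globule membrane proteins, 10 were called higher and none lower at p18 than at p6 in WT tissue, with a median log2 fold change of 0.90. The largest were Fabp3, a fatty acid carrier (7.52, SE 0.85, edgeR's quasi-likelihood test, adjusted p = 1.27e-05), the phosphate transporter Slc34a2 (5.93, SE 0.64) and the folate receptor Folr1 (4.28, SE 0.43), and the fatty acid receptor Cd36 rose by 1.96 (SE 0.21). In ΔSE tissue 11 of the 16 were called higher and 3 lower, with a median of 0.84. Among 9 genes of the Rab18 cycle and its tethers, 5 were called higher and none lower in WT and 4 and none in ΔSE tissue, among them Rab3gap1, which activates Rab18 (0.84, SE 0.11 in WT), and the SNARE protein Stx18 (0.88, SE 0.14 in WT).

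Other droplet genes did not move as a block. Of 11 tested coat and fusion genes, 3 were called higher and 2 lower in WT tissue, against 17.2% and 12.4% of all genes, with a median of -0.59. Plin3, a perilipin of many tissues, rose by 0.96 (SE 0.17), whereas Plin1, the perilipin of adipocytes, fell by 1.21 (SE 0.25, edgeR's quasi-likelihood test, adjusted p = 0.00190). Of 12 genes of droplet formation and breakdown, the member Cidea among them, 4 were called higher and 2 lower in WT tissue. In ΔSE tissue 3 were called higher and 6 lower, against 17.3% and 18.3% of all genes. Abhd5, which activates triglyceride breakdown, rose by 2.33 (SE 0.26), G0s2, an inhibitor of it, rose by 3.21 (SE 0.45), and the lipase Lipe fell by 1.15 (SE 0.24) in WT tissue. Plin1 and Lipe are also white fat markers. Of 12 such markers, both included, 4 were called lower and 1 higher in WT and 9 lower in ΔSE tissue, and their part in these droplet values was not tested.

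Around Xdh, 5 of 10 tested genes of the molybdenum cofactor and purine oxidation were called higher and 1 lower in WT tissue (17.2% and 12.4% of all genes). Mocs1, which starts the synthesis of the cofactor that Xdh carries, rose by 2.13 (SE 0.23), Ada, which deaminates adenosine, rose by 1.63 (SE 0.17) and Aox1, a related molybdenum enzyme, fell by 1.69 (SE 0.21). In ΔSE tissue 5 were called higher and 3 lower (17.3% and 18.3% of all genes). A list of 10 genes held integrin partners of Mfge8 and other genes of the clearance of dying cells. Of these, 1 was called higher (Tyro3, 1.26, SE 0.17) and 1 lower (Gas6, fell by 0.59, SE 0.17) in WT tissue and 2 and 5 in ΔSE tissue. Of 4 tested butyrophilin relatives, Btn2a2 was called higher in WT tissue (2.34, SE 0.58), and Btn2a2 (5.10) and Btnl9 (0.89) in ΔSE tissue.

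Between ΔSE and WT tissue at p18, edgeR called none of these listed genes. At an unadjusted p under 0.05, which 12.3% of all genes reached, there were 3 of 16 other globule membrane proteins, 0 of 11 coat genes, 6 of 12 genes of droplet formation and breakdown, 3 of 9 of the Rab18 cycle, 2 of 10 around Xdh, 0 of 10 Mfge8 integrin and cell clearance genes and 0 of 4 butyrophilin relatives. The 12 genes of droplet formation and breakdown include Cidea, itself a member and 1 of those 6 (unadjusted p = 0.0215 by edgeR's quasi-likelihood test). At p6, Btn2a2 (-3.43, SE 0.75, adjusted p = 0.0458) and Tyro3 (-0.72, SE 0.16, adjusted p = 0.0462) were called lower in ΔSE tissue.

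Across the 14 WT and ΔSE libraries and 8501 genes with a mean of at least 10 CPM, each member was compared with all others by Pearson's r of log2 CPM, given as a description since the libraries share stage and genotype. Btn1a1 was most like Hhipl2 (0.994), Csn2 (0.993) and Csn1s1 (0.993), the latter pair being the genes of β-casein and αS1-casein. Xdh was most like Slc52a2 (0.994), Rogdi (0.993) and Bhlha15 (0.992), and Plin2 like Ada (0.989), Dennd6a (0.989) and Acss1 (0.988). Mfge8 was nearest to Gtf3c5 (0.965), Edrf1 (0.960) and D2Wsu81e (0.959), and Muc1 to Map7 (0.991), Rnf5 (0.989) and Rbm47 (0.989). Rab18 was most like Srpr (0.993), part of the receptor for the signal recognition particle, Cmtm6 (0.987) and Tmem165 (0.986). Cidea had no close match, the nearest being Nek7 (0.874), Fam195b (0.866) and Acadvl (0.857). Among the members, r was 0.967 between Btn1a1 and Xdh, 0.972 between Xdh and Plin2, 0.937 between Xdh and Rab18 and 0.423 between Btn1a1 and Cidea.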

How the data were processed

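Total RNA was depleted of ribosomal RNA and sequenced as pairs of 50-base reads. Per the paper's methods, the authors trimmed reads with Trimmomatic, aligned them to mm10 with STAR and counted them per gene with HTSeq; the deposited values are these raw counts, not normalized. The paper's later use of DESeq2 and RUVSeq is not in the files. Summary entries that name no gene, which held 23.5 to 30.6% of all counts in the single-enhancer files, stayed out of library sizes and tests.

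Genes with at least 10 reads in total were tested in R (version 4.3.3) with edgeR (version 4.0.16; TMM, glmQLFit, glmQLFTest), the 14 WT and ΔSE libraries in a model of 4 groups (17844 genes) and the 8 libraries of WT p18 and the single-enhancer lines in a model of 3 groups (17125 genes). Adjustment was over all genes tested, with calls at adjusted p under 0.05, and the scripts were tested on simulated data. The SE of a log2 fold change was back-calculated, as its absolute value divided by the square root of the test's F statistic. CPM values are TMM-normalised over all 19 libraries, and CPM per kb uses GENCODE exon lengths. Ratios were tested with exact two-sided permutation tests of group means. Alternatives used DESeq2 (version 1.42.0), other scalings and filters, covariates, a replicate block and the omission of each library. All 7 members passed the filter. The members and gene lists were chosen with earlier results of these data known. Named genes are all members, up to 4 called genes of each list and comparison with the smallest p, and the 3 genes most like each member. Leaving out the p6 libraries with Ucp1 over 10 CPM, or the WT p18 libraries with muscle transcripts, was chosen after seeing the data.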

Additional observations from a re-analysis of the deposited data

Results flagged for a closer look

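In ΔSE tissue at p6 the log2 ratio of Btn1a1 to Plin2 was -2.55, -3.81, -2.63 and -2.48 in replicates 1 to 4, and the library at -3.81, replicate 2, lay far from the other 3 by Dixon's criterion, which flags about 1 in 20 groups by chance. The same library had the lowest Btn1a1 of its group, 8.48 CPM, and the highest Ucp1, 16.6 CPM. No cause was tested.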

How the results depend on the processing

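Among the 7 members, stage calls were 6 in each genotype, and 5 to 7 under the alternatives other than a factor of unwanted variation. With 1 such factor, which was positive in all p6 libraries (0.116 to 0.385) and negative in all p18 libraries (-0.321 to -0.159), they fell to 0 and 0, and Mfge8 reversed to -0.72 in WT and -0.69 in ΔSE tissue. That fit called 0.0112% of all genes in WT and 0% in ΔSE tissue, against 29.6% and 35.6% without the factor. Leaving out each library in turn gave 5 to 6 stage calls in WT and 6 to 6 in ΔSE tissue, 0 to 1 for ΔSE against WT at p18, 0 to 5 at p6, 0 to 4 for the interaction, 0 to 1 for ΔCsn3PE against WT, and 0 to 0 for ΔCsn1s2bE against WT and against ΔCsn3PE. Over all genes, the fits without 1 library called 0.0337 to 0.585% for ΔSE against WT at p18, 0.0451 to 9.97% at p6 and 0 to 5.84% for the interaction. In what follows, the share of all genes called in either direction stands in brackets. For ΔSE against WT at p18 the 1 call (0.314%) became 3 with only the groups compared in the fit (4.98%). At p6 the 1 call (1.03%) became 0 with the unwanted factor (0.028%) or only the groups compared (0%), and 3 with DESeq2 (5.13%). It became 2 without the filter on low counts (1.38%) or with the muscle covariate (2.02%), and 5 without the p6 libraries with Ucp1 over 10 CPM (6.72%), an alternative chosen after seeing the data. The 0 calls of the interaction (0.151%) became 1 with DESeq2 (3.35%), 1 without the filter (0.468%) and 2 without the Ucp1 libraries (3.76%). For ΔCsn1s2bE against WT the 0 calls (32.3%) became 1 without the filter (28.1%), 1 with only the groups compared (33%) and 4 with scaling by library totals (36.9%). For ΔCsn3PE against WT the 1 call (25.2%) became 3 with scaling by library totals (33.5%). It became 0 with Rn45s left out (23.9%), at least 1 CPM in at least 3 libraries (30%) or only the groups compared (22.2%). Leaving out the WT libraries with muscle transcripts, chosen after seeing the data, left 1 WT library, and the Plin2 estimate was then 0.86. The causes were not tested.

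Scaling by library totals moved the all-gene median of log2 fold changes to -0.42 (WT stage), -0.65 (ΔSE stage), 0.16 (ΔSE against WT at p6), 0.40 (ΔCsn1s2bE) and 0.42 (ΔCsn3PE against WT). Calls over all genes, higher and lower, were then 763 and 3663 in WT (3068 and 2211 with TMM), 628 and 7969 in ΔSE tissue (3083 and 3265), 5444 and 874 for ΔCsn1s2bE (2950 and 2576) and 5103 and 627 for ΔCsn3PE (2355 and 1968).

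Same-numbered replicates deviated together with correlations of -0.63 to 0.44, so the numbers were not taken to pair libraries. With a replicate block, member calls were 7 for the WT stage change, Cidea included (2.38, adjusted p = 0.0187), 6 for the ΔSE stage change, 0 for ΔSE against WT at p6, 1 for the interaction and 0 for ΔCsn3PE against WT. Over all genes the fits with this block called 27.8, 33.5, 0.146, 0.14 and 11.5% in these comparisons, in that order. Intervals and levels cover these libraries only, with 2 to 4 a group, and low counts of Cidea at p6 limit its precision.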
